A study of Mus musculus with 6 samples.

Results

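The nuclear-encoded subunits of the mitochondrial respiratory chain were followed in micro-dissected cochlear sensory epithelia (CSE) of the mouse at postnatal day 3 (P3) and in the adult. Members were the genes whose symbols are those of the subunits of complexes I to V, cytochrome c included, and which at least 1 probe set of the array names alone. There were 83 such genes on 169 of the 45101 probe sets, with 35 genes in complex I, 4 in complex II, 9 in complex III, 17 in complex IV, 17 in complex V and 1 for cytochrome c. The rule used gene names and no measured value. The subunits that mitochondrial DNA itself encodes were outside it.

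Both stages came from Swiss Webster mice, for which no treatment or genetic change is given, and the groups were P3 and adult at 8 weeks. Each stage had 3 arrays (Affymetrix mouse whole-genome chips), each from a separate dissection in which 40 CSE of 20 mice were pooled. The CSE holds the hair cells and supporting cells, with the greater and lesser epithelial ridges at P3 and the inner sulcus and interdental cells in the adult. Since whole tissue was measured, fewer cells of a type and less RNA per cell cannot be told apart in any result given here.

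The respiratory chain passes electrons from NADH (complex I) and succinate (complex II) through complex III and cytochrome c to oxygen at complex IV, and the proton gradient that this builds drives ATP synthesis at complex V. Hearing rests on ion transport that consumes ATP, and defects of mitochondrial genes are a known cause of hearing loss. Several subunits of complex IV, cytochrome c oxidase, exist as pairs of isoforms, of which one is made in nearly all tissues and the other mainly in heart, skeletal muscle, lung or testis.

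Of the 83 genes, 81 passed the filter, a signal over background on 3 or more arrays, and were tested, and 78 of these were above background on all 6. Ndufb4 and Cox7b2 were not, on the probe sets that name them alone. The members were bright. Of the 81 genes, 64 had a median signal over 1000, only 6 lay under 100 (Ndufb1, Ndufa4l2, Cox4i2, Cox6a2, Cox7c and Cox8c), and the median member stood at percentile 97.5 of all 13743 genes measured. Each gene is given by its brightest probe set, and signals are MAS5.0 intensities on a linear scale. Brightness depends on the probes as well as on the RNA, so these signals and ranks do not give the relative RNA amounts of different genes. Of these probe sets, 12 carry the suffix for probes shared by several transcripts and 3 that for probes open to cross-hybridization, so near-identical copies may add to their signals.

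One array stood apart. On P3 replicate 1 the signal at the 3' end of the Gapdh transcript was 82.0 times that at its 5' end, against 0.707 to 2.07 on the other 5 arrays, and for actin the ratio was 50.5 against 1.38 to 4.18. Its background level was 34.5 against 6.29 to 16.3, and 47.4% of its probe sets were above background against 58.6% to 68.1%. All 12 supporting cell markers and 10 of 15 hair cell markers were measured, while Slc26a5 and Tmc1, of outer hair cells and of the transduction channel, were below the filter. Sums of marker signals, here and below, take in every listed gene that the array names, also those below the filter. Granulocyte markers summed to 133 to 433 on the P3 arrays and 4021 to 18206 on the adult arrays. Neuronal markers summed to 4969 to 5722 and 8645 to 24615. The neuronal markers differed in direction. Of 11 measured, 8 were higher in the adult. Called higher there were 3, beside 4.53% of all genes, and Gap43 alone was called higher at P3, beside 5.49%. Erythroid markers summed to 404 to 566 and 1284 to 1817. Of 5 measured, 3 were called higher in the adult, beside 4.53% of all genes. The part of these cells in the values below was not tested.

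Among the 81 subunit genes, 2 were called higher in the adult (limma, 2-fold or more and an adjusted p below 0.05), beside 4.53% of all genes tested, and 0 were called higher at P3, beside 5.49%. Both called genes, Cox8b and Cox7a1, encode the muscle-type isoforms of complex IV subunits. Most other subunits had small positive values. The log2 fold change, adult minus P3, was above 0 for 72 of 81 members, beside 47.7% of all genes, with a median of 0.35 (quartiles 0.19 and 0.48) against -0.04 over all genes (quartiles -0.55 and 0.48). At an unadjusted p under 0.05, 9 members were higher in the adult, beside 13.0% of all genes, and 0 at P3, beside 15.7%. All 3 adult arrays lay above the 3 P3 arrays for 19 members, beside 15.9% of all genes, and below them for 1, Cox7a2l, beside 20.3%. The share of members called was thus under that of all genes in each direction.

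**Figure D1:**
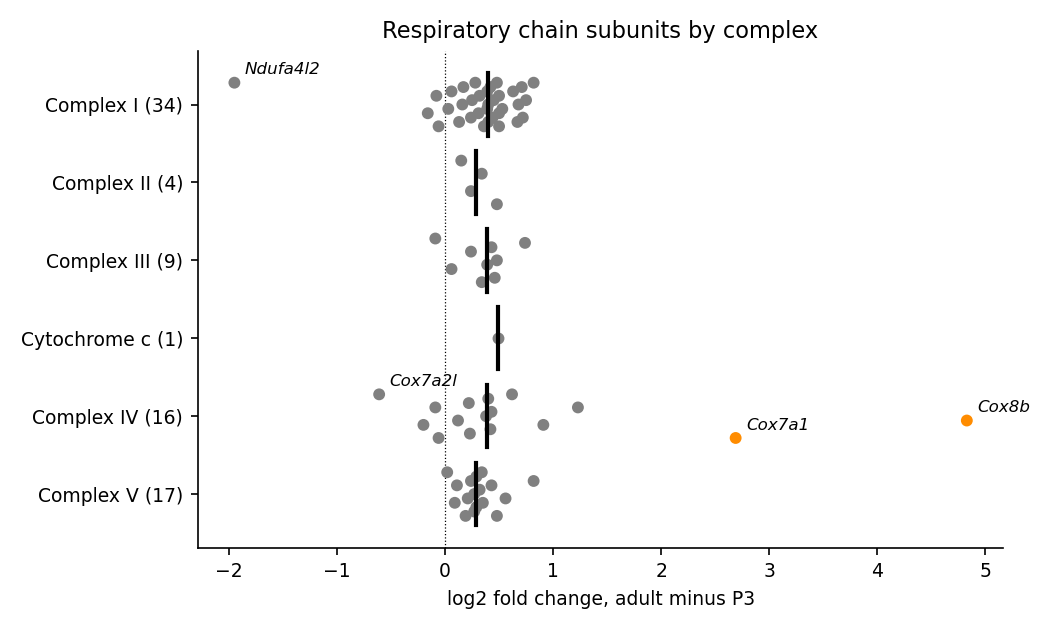
Log2 fold change (adult minus P3) of each of the 81 measured subunit genes by complex, with the number of genes in brackets. Each point is 1 gene, orange points were called higher in the adult and black bars are medians, which lie between 0.29 and 0.49. Only Cox7a1 (2.69) and Cox8b (4.83) stand far to the right.

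Complex IV held both calls. Cox8b is the heart and muscle form of subunit 8. Its signal was 86.3, 22.2 and 18.8 on P3 arrays 1 to 3 and 506, 1343 and 1215 on adult arrays 1 to 3. The lowest adult array was above the highest P3 array, and the largest P3 value came from the array with the high 3' to 5' ratios. The means were 42.4 ± 38.0 at P3 and 1021 ± 451 in the adult (SD, n = 3 arrays each). The ratio of geometric means was 28.4-fold, a log2 fold change of 4.83 ± 0.60 (limma's SE, adjusted p = 0.00366). Without P3 replicate 1 it was 5.52 (adjusted p = 0.00156).

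Cox7a1, the heart and muscle form of subunit 7a, gave 133, 88.5 and 82.1 on the P3 arrays and 370, 854 and 816 on the adult arrays. Again the stages did not overlap and adult replicate 1 was the lowest of its stage. The means were 101 ± 27.9 and 680 ± 269 (SD, n = 3 arrays each), a 6.43-fold difference and a log2 fold change of 2.69 ± 0.36 (SE, adjusted p = 0.00494). It was 2.90 without P3 replicate 1 (adjusted p = 0.00601). Both genes were called under each of 17 alternative settings, with log2 fold changes from 4.28 to 5.72 for Cox8b and from 2.47 to 3.15 for Cox7a1.

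Both genes lie on chromosome 7, Cox8b on the minus and Cox7a1 on the plus strand. Their promoters are shown because they are the 2 members that were called, beside that of Cycs, which encodes cytochrome c and was not called. The sequences are the 250 bases before the RefSeq start (GRCm38.p6), at chr7:140900447-140900696 for Cox8b, chr7:30183921-30184170 for Cox7a1 and chr6:50566570-50566819 on the minus strand for Cycs. Capitals mark a match to the NRF1 motif GCGCANGCG, searched on both strands.
Cox8b: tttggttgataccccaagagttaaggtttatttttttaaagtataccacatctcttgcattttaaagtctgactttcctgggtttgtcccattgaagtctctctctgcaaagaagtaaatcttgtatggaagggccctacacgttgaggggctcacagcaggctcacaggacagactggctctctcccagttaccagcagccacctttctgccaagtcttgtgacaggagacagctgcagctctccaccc
Cox7a1: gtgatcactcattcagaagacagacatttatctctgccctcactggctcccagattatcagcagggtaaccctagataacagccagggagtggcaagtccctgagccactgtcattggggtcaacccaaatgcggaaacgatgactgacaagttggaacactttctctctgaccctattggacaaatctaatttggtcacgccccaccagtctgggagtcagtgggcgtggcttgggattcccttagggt
Cycs: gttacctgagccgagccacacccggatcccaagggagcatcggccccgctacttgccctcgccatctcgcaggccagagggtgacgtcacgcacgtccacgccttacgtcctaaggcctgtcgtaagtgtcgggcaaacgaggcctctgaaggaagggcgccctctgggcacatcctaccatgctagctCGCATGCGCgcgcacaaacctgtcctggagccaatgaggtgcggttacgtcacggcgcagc

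The Cycs window held an NRF1 match that starts 61 bases before the start, while those of Cox8b and Cox7a1 held none of the 4 motifs searched. NRF1, GABPA and YY1 are transcription factors known to act on respiratory chain genes, and ERRA, the product of Esrra, is a nuclear receptor that works with PGC-1 alpha. RefSeq promoters, from 250 bases before to 50 after the start, were found for 67 of the 83 members and compared with those of 27025 genes, on both strands. GCGCANGCG (NRF1) was found in 19 members or 28.4%, against 7.03% of all genes, and AAGATGGC (YY1) in 9 or 13.4% against 3.19%. CCGGAAGT (GABPA) was found in 5 members or 7.46%, against 4.31%. TCAAGGTCA (ERRA) was found only in Sdhd and Atp5g3 among members, 2.99% against 0.466%. A match is a description of the sequence and says nothing of binding.

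Beside these muscle-type forms stood their counterparts of nearly all tissues. Cox8a, the general form of subunit 8, gave 827, 1813 and 1423 at P3 and 2121, 2848 and 2331 in the adult. Its arrays did not overlap, but its log2 fold change of 0.91 ± 0.33 (SE) did not pass the test (adjusted p = 0.136), and P3 replicate 1 was the lowest of the 6 arrays. A further probe set gave 0.92 (adjusted p = 0.0997). Cox7a2, the general form of subunit 7a, gave 9889, 3905 and 3481 at P3 and 8642, 5505 and 6884 in the adult. Its log2 fold change was 0.43 (adjusted p = 0.616), with P3 replicate 1 above all adult arrays. A second Cox7a2 probe set gave 3205, 2145 and 1923 against 3634, 3540 and 3326, without overlap (0.56, adjusted p = 0.275). The difference in fold between the forms of a subunit was not tested.

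Cox7a2l encodes a relative of subunit 7a that takes part in joining complexes III and IV into supercomplexes. It gave 2204, 1432 and 1235 at P3 and 1121, 1209 and 807 in the adult. On brightest probe sets it was the one member with every P3 array above every adult array. Its log2 fold change of -0.61 ± 0.29 (SE) did not pass the test (adjusted p = 0.253). Its 3 probe sets gave between -0.61 and -0.58, and the value stayed between -0.79 and -0.37 over the 17 settings.

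Other muscle, lung and testis forms were dim and were not called. Cox6a2, the muscle form of subunit 6a, gave 71.4, 10.8 and 11.9 at P3 and 22.7, 25.4 and 20.7 in the adult (log2 fold change 0.12, adjusted p = 0.941). Cox6a2 is known as a muscle isoform like Cox8b and Cox7a1, but it was called in none of the 17 settings. The sign of its value changed in 4 of 17 settings. The overlap of its stages came from P3 replicate 1, while the other P3 arrays lay below all adult arrays. Without P3 replicate 1 its log2 fold change was 1.01. Whether Cox6a2 followed Cox8b and Cox7a1 thus depends on that array and on dim signals, and was not tested. Cox4i2, the lung form of subunit 4, gave 41.9, 8.57 and 10.9 against 11.5, 11.9 and 23.6, and the testis form Cox8c gave 68.8, 31.5 and 36.1 against 49.3, 30.6 and 45.9. Cox6b2, the testis form of subunit 6b, gave 133, 78.2 and 108 against 145, 53.7 and 95.0. The stages overlapped for each of these genes, with log2 fold changes of -0.09, -0.06 and -0.20.

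**Figure D2:**
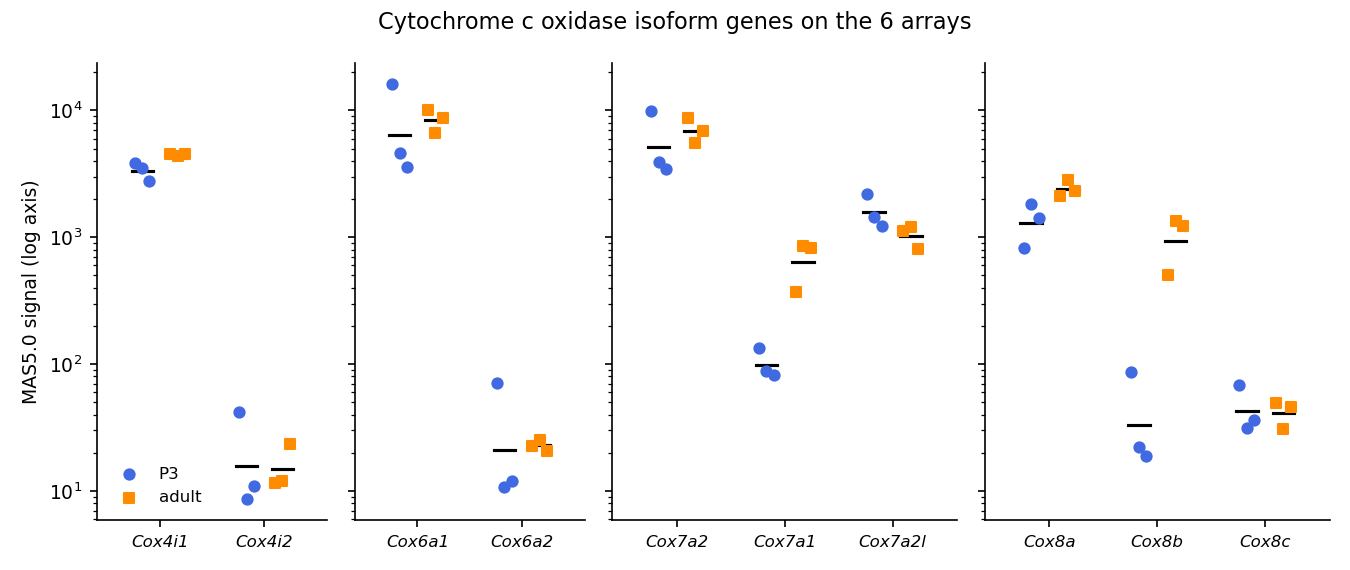
MAS5.0 signals (log axis) of the isoform genes of complex IV subunits 4, 6a, 7a and 8 on the 6 arrays. Circles are P3 arrays 1 to 3 and squares adult arrays 1 to 3 from left to right, and bars are geometric means. The stages are far apart for Cox7a1 and Cox8b and overlap for Cox4i2, Cox6a2 and Cox8c.

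The general forms Cox4i1, Cox6a1 and Cox6b1 were bright at both stages. Cox4i1 gave 3821, 3526 and 2774 at P3 and 4511, 4365 and 4528 in the adult, without overlap (log2 fold change 0.42, adjusted p = 0.405). Cox6b1 gave 8059, 3671 and 3128 against 6303, 4734 and 4940 (0.22, adjusted p = 0.783). A second Cox6b1 probe set gave 0.32 without overlap (adjusted p = 0.433). Cox6a1 gave 16205, 4611 and 3545 against 10062, 6630 and 8732 (0.38, adjusted p = 0.732), so that P3 replicate 1 had its highest signal. A second Cox6a1 probe set had no such excess, with 1698, 2038 and 1772 against 3150, 3369 and 3393 and a log2 fold change of 0.85 (adjusted p = 0.0686).

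Of the single-form subunits of complex IV, Cox5a gave 8376, 3470 and 2794 at P3 and 9222, 4837 and 6568 in the adult (log2 fold change 0.62, adjusted p = 0.474). Further Cox5a probe sets gave 0.74 (adjusted p = 0.214) and 0.68 (adjusted p = 0.182), both without overlap. Cox5b had a value of 0.23 and Cox6c one of 0.40. For Cox7c the brightest probe set that names it alone gave 2.96, 20.0 and 18.6 against 19.9, 16.4 and 42.9. These signals lay near background, so its log2 fold change of 1.23 (adjusted p = 0.43) rests on weak values. Over its 16 measured genes complex IV had a median of 0.39, with 12 values above 0.

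As Cox8b and Cox7a1 are made mainly in heart, striated muscle and brown fat, markers of striated muscle and brown fat were read on the same arrays, with no separate list for heart. Of 19 striated muscle markers 8 were measured and 0 called, with a median log2 fold change of 0.26. The summed signal of all 19 was 1003 to 1544 at P3 and 1235 to 4944 in the adult. Most of that sum came from Pvalb, a calcium-binding protein that neurons and hair cells also make, with 1057, 707 and 659 at P3 and 4035, 926 and 1745 in the adult. Myl1, a fast muscle myosin light chain, gave 137, 177 and 228 against 666, 201 and 672 (log2 fold change 1.34, adjusted p = 0.122), with overlap. The fast myosins Myh2 and Myh4, the troponins Tnnt3, Tnni2 and Tnnc2, and myoglobin (Mb) were below the filter. On the adult arrays, whose background levels ran from 8.71 to 16.3, 5 of the 19 markers were above background on all 3, namely Pvalb, Myl1, Mylpf (28.2, 22.8 and 11.3), Atp2a1 (16.4, 10.1 and 13.8) and Des (33.1, 20.1 and 32.9). Muscle actin (Acta1) was above it on 2 of the adult arrays, with 13.3, 11.7 and 13.1, and on all 3 P3 arrays, with 73.9, 22.8 and 12.3. Muscle creatine kinase (Ckm) gave 35.5, 1.97 and 7.3 in the adult and was above background on the first of these arrays, and 43.7, 10.2 and 13.1 at P3. Of the 8 measured markers 5 had log2 fold changes above 0.

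Among brown fat markers Ucp1, the uncoupling protein, was above background on none of the 6 arrays. Adipoq, of fat cells in general, was below the filter but above background on 2 adult arrays, with 11.2, 57.2 and 21.5. Of 7 brown fat markers 3 were measured, with a median log2 fold change of 1.35. The summed signal of the 5 on the array, Ucp1 and Adipoq included, was 391 to 508 at P3 and 561 to 735 in the adult. Cidea, a lipid droplet protein, gave 5.68, 21.9 and 27.3 at P3 and 22.4, 65.1 and 38.9 in the adult (log2 fold change 1.35, adjusted p = 0.29), with overlap. Dio2 had a value of -0.81, and the one called was Ppargc1a, which is widely made. Of 11 markers of smooth muscle and pericytes 10 were measured and 0 called, with sums over all 11 of 2053 to 2692 and 2763 to 3637. The part of these tissues in the Cox8b and Cox7a1 values was not tested.

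Complex I, the largest, takes electrons from NADH. Of its 35 genes 34 were measured and 0 called, 30 had values above 0 and the median was 0.39. The arrays of 9 lay higher in the adult without overlap, beside 15.9% of all genes, and those of 0 higher at P3, beside 20.3%. Among the core subunits, which carry the flavin or iron-sulfur clusters or line the quinone site, the 6 measured genes had log2 fold changes from 0.24 (Ndufs3) to 0.72 (Ndufs7), with a median of 0.54 against 0.37 for the other 28. That difference was not tested. Ndufs1, the large iron-sulfur subunit, gave 373, 429 and 503 at P3 and 694, 658 and 657 in the adult, a log2 fold change of 0.63 ± 0.21 (SE, adjusted p = 0.108). Its stages stood apart.

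Ndufs7 and Ndufs8 hold the clusters next to the quinone. Ndufs7 gave 2101, 826 and 738 against 2289, 1640 and 1514 (log2 fold change 0.72, adjusted p = 0.333). Ndufs8 gave 838, 1859 and 1985 against 3064, 2360 and 1885 (0.71, adjusted p = 0.296). On these probe sets P3 replicate 1 was thus the highest P3 array for Ndufs7 and the lowest for Ndufs8, and on the next brightest ones the reverse. The second Ndufs7 probe set gave 429, 701 and 634 against 1063, 1132 and 912 (0.84, adjusted p = 0.0822). The second Ndufs8 probe set gave 1573, 1333 and 1250 against 2365, 2032 and 1728 (0.55, adjusted p = 0.21). Both stood apart between the stages. The 6 Ndufs8 probe sets ranged from -0.45 to 0.71. Ndufv1, which binds NADH, had a value of 0.44 and Ndufv2 one of 0.39.

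Accessory subunits surround this core. Ndufs5 had the highest value of complex I, with 606, 1163 and 1003 at P3, 1366, 1779 and 1606 in the adult and a log2 fold change of 0.82 ± 0.29 (SE, adjusted p = 0.13). Ndufc1 followed with 2228, 1841 and 1662 against 3049, 3517 and 3001 (0.75 ± 0.25, adjusted p = 0.115). Both stood apart between the stages, as did Ndufb2 (0.67) and Ndufb10 (0.53), but none passed the adjusted threshold. Ndufa13, also known as a partner of STAT3, gave 4157, 1871 and 1559 against 3933, 3268 and 3877 (0.68, adjusted p = 0.334).

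At the other end on brightest probe sets, Ndufs4 gave 562, 662 and 547 at P3 and 554, 576 and 460 in the adult (log2 fold change -0.16, adjusted p = 0.699). Its further probe sets, all dimmer, gave 0.54 without overlap (adjusted p = 0.366), 0.11 and 1.28. The sign for Ndufs4 changed on the mean over its probe sets. Ndufa4l2 is a relative of Ndufa4 that hypoxia is known to induce. It gave 72.0, 16.4 and 43.8 against 31.6, 1.45 and 19.5, which overlap and lie near background, and its value of -1.95 had an SE of 1.14 (adjusted p = 0.344). Ndufa4 itself, named for complex I but now counted as a subunit of complex IV, gave 4212, 2734 and 2236 against 4027, 3766 and 3872 (0.40, adjusted p = 0.487).

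Complex II, which is also the succinate dehydrogenase of the citric acid cycle, has 4 subunits, all measured and none called. Sdha, the flavoprotein, gave 919, 855 and 820 at P3 and 1022, 1404 and 1220 in the adult, a log2 fold change of 0.48 ± 0.22 (SE, adjusted p = 0.233). Sdhb, the iron-sulfur subunit, gave 1360, 1349 and 1288 against 1529, 1862 and 1700 (0.34 ± 0.22, adjusted p = 0.387). On these probe sets of the catalytic arm the stages did not overlap, and P3 replicate 1 stood close to the other P3 arrays. A second Sdha probe set gave 834, 472 and 524 against 1484, 1017 and 1155, also without overlap but with P3 replicate 1 the highest at P3, and a log2 fold change of 1.03 ± 0.28 (SE, adjusted p = 0.0643).

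The membrane anchors overlapped between the stages. Sdhc gave 767, 504 and 813 against 872, 569 and 1045 (log2 fold change 0.24), and Sdhd gave 510, 613 and 592 against 561, 717 and 632 (0.15). A second Sdhd probe set gave -0.31. Complex II had a median of 0.29.

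Complex III passes electrons from quinol to cytochrome c. Its 9 genes were all measured, 0 were called, 8 had values above 0 and the median was 0.39. Uqcr10, a small subunit, had the highest value, with 1203, 826 and 733 at P3 and 1354, 1601 and 1554 in the adult, a log2 fold change of 0.74 ± 0.26 (SE, adjusted p = 0.123). Cyc1, cytochrome c1, gave 1648, 1034 and 1018 against 1921, 1555 and 1565 (0.48 ± 0.27, adjusted p = 0.33). On brightest probe sets Uqcr10 stood apart between the stages, as did Uqcrc1 (0.43) and Uqcrq (0.46), and Cyc1 did not. Dimmer second probe sets of Uqcr10 (-0.39, adjusted p = 0.679) and Uqcrq (-0.91, adjusted p = 0.465) had values under 0, with overlap. The sign for Uqcrq changed on the mean over its probe sets.

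Uqcrfs1, the Rieske iron-sulfur protein, had the lowest value, with 922, 1078 and 1046 against 730, 1210 and 984 (log2 fold change -0.09). Uqcrh, the hinge protein, gave 2980, 2495 and 1844 against 2099, 2920 and 2554 (0.06). Uqcrb was brightest on one P3 array, with 18646 on P3 replicate 1 beside 4933 and 4343, and adult signals of 11388, 6582 and 8710 (0.24, adjusted p = 0.844). Its second probe set gave 1210, 1132 and 1049 against 918, 1383 and 1326. Cycs, cytochrome c itself, gave 5309, 2658 and 2369 at P3 and 5580, 4043 and 4107 in the adult (0.49 ± 0.37, adjusted p = 0.472). Its next brightest probe set gave 1579, 1042 and 1078 against 2752, 2185 and 2162, without overlap (0.96 ± 0.26, adjusted p = 0.0643). Further Cycs probe sets gave 0.45 and, on a dim one, 1.56, also without overlap. None was called.

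Complex V, the ATP synthase, had a value above 0 for all 17 genes on brightest probe sets, none called, with a median of 0.29. Without P3 replicate 1, 16 of the 17 were above 0. Further probe sets of Atp5o (-0.37), Atp5j2 (-0.29) and Atp5pb (-0.02) had values under 0. The F1 head of complex V makes ATP. The beta subunit Atp5b, which carries the catalytic sites, had the highest value, with 1779, 3030 and 2503 at P3, 4750, 3823 and 4095 in the adult and a log2 fold change of 0.82 ± 0.30 (SE, adjusted p = 0.137). On brightest probe sets it was the only complex V gene whose stages did not overlap. Second probe sets of Atp5d (0.79), Atp5j2 (0.36) and Atp5c1 (1.08) also stood apart, higher in the adult, and none was called. The alpha subunit Atp5a1 gave 2574, 1795 and 1718 against 2519, 2522 and 2604 (0.35), and the gamma subunit Atp5c1 gave 5516, 3370 and 2757 against 3948, 3735 and 3634 (0.02). The sign for Atp5c1 changed in 3 of 17 settings, and its second probe set gave 1.08.

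The membrane part turns a ring of c subunits, which 3 genes encode as the same mature protein. Atp5g1 gave 930, 1094 and 1016 against 1180, 1158 and 907, Atp5g2 gave 458, 1196 and 1430 against 1014, 1122 and 1215, and Atp5g3 gave 8390, 3345 and 2967 against 5378, 4495 and 5380. Their log2 fold changes were 0.09, 0.27 and 0.21, and the stages overlapped for each. P3 replicate 1 was the lowest array for Atp5g2 and the highest for Atp5g3. Atp5md, a small accessory subunit, had the second value of the complex (0.56, adjusted p = 0.457) through adult replicate 1 alone, with 1531, 1192 and 1598 against 4070, 1291 and 1780.

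The arrays of a stage differed in the level of the subunits as a whole. Against each gene's mean over the 6 arrays, the median log2 deviation of the 81 members was 0.22, -0.31 and -0.48 on P3 arrays 1 to 3 and 0.29, 0.14 and 0.12 on adult arrays 1 to 3. Over all genes it lay between -0.07 and 0.10. P3 replicate 1 was the highest of all 6 arrays for 31 members and the highest P3 array for 59, while P3 replicate 3 was the lowest of all 6 for 54. The P3 arrays thus spread over more than the members' median fold change, and complex IV spread most (0.68, -0.41 and -0.67). Complex II had like levels on the P3 arrays, with -0.15, -0.20 and -0.12.

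**Figure D3:**
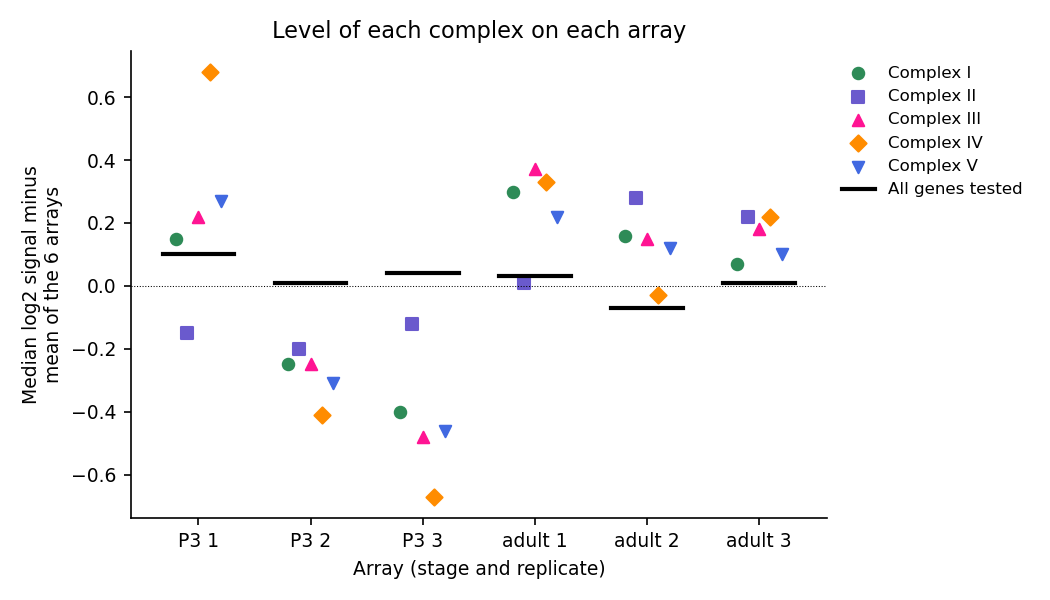
Median over the genes of each complex of the log2 signal minus that gene's mean over the 6 arrays, for each array, with the median of all genes tested as black bars. On P3 replicate 1 complex IV is at 0.68 and complex II at -0.15, and on P3 replicates 2 and 3 all 5 complexes lie below 0.

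P3 replicate 1 exceeded the mean of the other P3 arrays by a median log2 of 0.63 over the members, against 0.08 over all genes. In the 46 genes with several measured probe sets this excess was 0.63 for the brightest probe set and 0.29 for the next. The part of the 3' to 5' ratios of this array in that excess was not tested. Left out of the fit, it gave a median of 0.59 over members, with 75 of 81 above 0, against -0.03 over all genes. Then 5 members were called higher in the adult, beside 5.98% of all genes. They were Cox8b, Cox7a1, Ndufs7 (log2 fold change 1.19, adjusted p = 0.0223), Ndufa13 (1.11, adjusted p = 0.0169) and Cox6a1 (1.05, adjusted p = 0.0389). Uqcr10, Ndufc1, Atp5j and Cycs passed the adjusted p but stayed under a fold of 2.

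Without P3 replicate 1 the complexes had medians of 0.56 (I), 0.34 (II), 0.63 (III), 0.65 (IV) and 0.60 (V), and without P3 replicate 3 of 0.29, 0.35, 0.18, 0.03 and 0.11. The order of the complexes thus changed with the array left out. Their medians were not tested against each other.

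**Figure D4:**
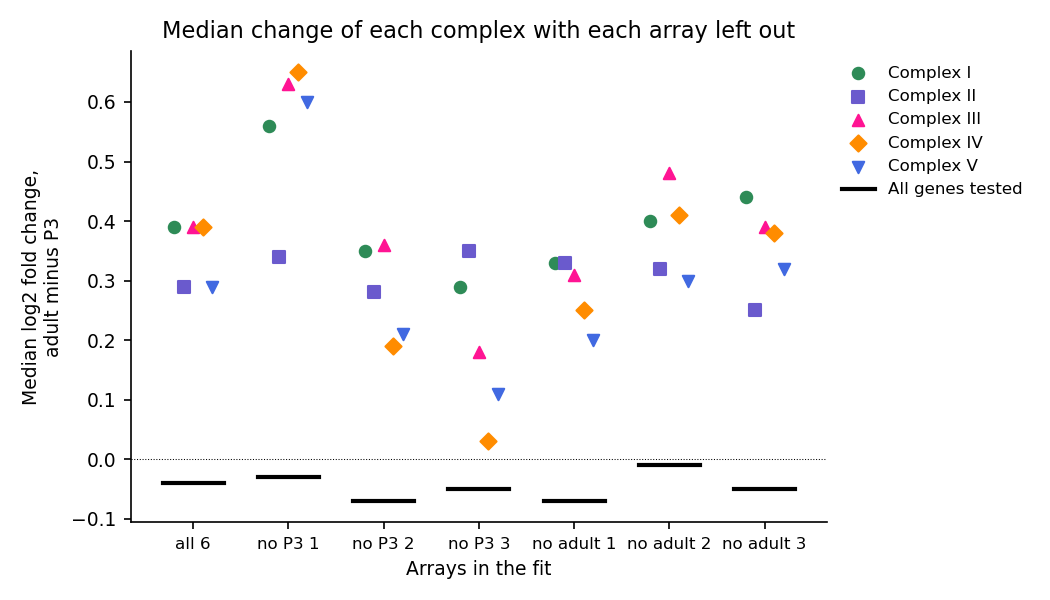
Median log2 fold change (adult minus P3) of each complex with all 6 arrays and with each array left out, with the median of all genes as black bars. The medians of complexes I to V stay above 0 throughout, from 0.03 for complex IV without P3 replicate 3 to 0.65 for complex IV without P3 replicate 1.

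Assembly factors help to build the complexes without being part of them, and their median lay near 0. Of 42 assembly factors measured, 1 was called higher in the adult and 0 at P3, beside 4.53% and 5.49% of all genes. Values were above 0 for 25, beside 47.7% of all genes. The median log2 fold change was 0.04, or -0.06 without P3 replicate 1. The called gene, Cox17, a copper chaperone for complex IV, gave 853, 669 and 583 at P3 and 1608, 2054 and 1572 in the adult (1.32 ± 0.24 SE, adjusted p = 0.0161). Its adjusted p rose to 0.0724, 0.0694 and 0.0701 when P3 replicate 2, P3 replicate 3 and adult replicate 3 were left out in turn. The 4 factors of complex II all had values under 0, with a median of -0.39, and none was called. For this complex the subunits (median 0.29) and the factors lay on opposite sides of 0, a difference that was not tested.

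Enzymes of the citric acid cycle and pyruvate dehydrogenase supply the chain with electrons. Of 15 measured, 1 was called higher in the adult and 0 at P3, beside 4.53% and 5.49% of all genes. Their median log2 fold change was 0.24. Ogdh, of the 2-oxoglutarate dehydrogenase complex, gave 255, 210 and 312 against 615, 463 and 870 (log2 fold change 1.30 ± 0.28 SE, adjusted p = 0.0304). Its call was lost without P3 replicate 2 (adjusted p = 0.11), P3 replicate 3 (0.0574), adult replicate 1 (0.0672) or adult replicate 3 (0.134).

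Of 11 regulators of mitochondrial genes, 2 were called higher in the adult and 0 at P3, beside 4.53% and 5.49% of all genes. Their median log2 fold change was 0.12. Esrra, the nuclear receptor ERR alpha, gave 94.3, 100.0 and 84.6 at P3 and 393, 309 and 415 in the adult (1.99 ± 0.23 SE, adjusted p = 0.00242). Ppargc1a, which encodes its coactivator PGC-1 alpha, gave 143, 128 and 131 against 531, 340 and 425 (1.67 ± 0.24, adjusted p = 0.0058). Both stood far apart between the stages, both were called with each array left out, and on P3 replicate 1 both were close to the other P3 arrays. Esrra was not called on the mean over its probe sets (1.54, adjusted p = 0.0598), nor Ppargc1a after scaling to the same median (1.69, adjusted p = 0.0565).

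Other regulators had values of either sign. Gabpa, a subunit of an ETS-family factor, gave 486, 575 and 442 at P3 and 233, 331 and 326 in the adult (log2 fold change -0.77, adjusted p = 0.0865). Tfam, which packs and transcribes mitochondrial DNA, gave 330, 327 and 326 against 215, 305 and 240 (-0.39, adjusted p = 0.325). Yy1 had a value of -0.32 and Nrf1, which was dim, one of 0.40. None of these 4 passed the test.

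**Figure D5:**
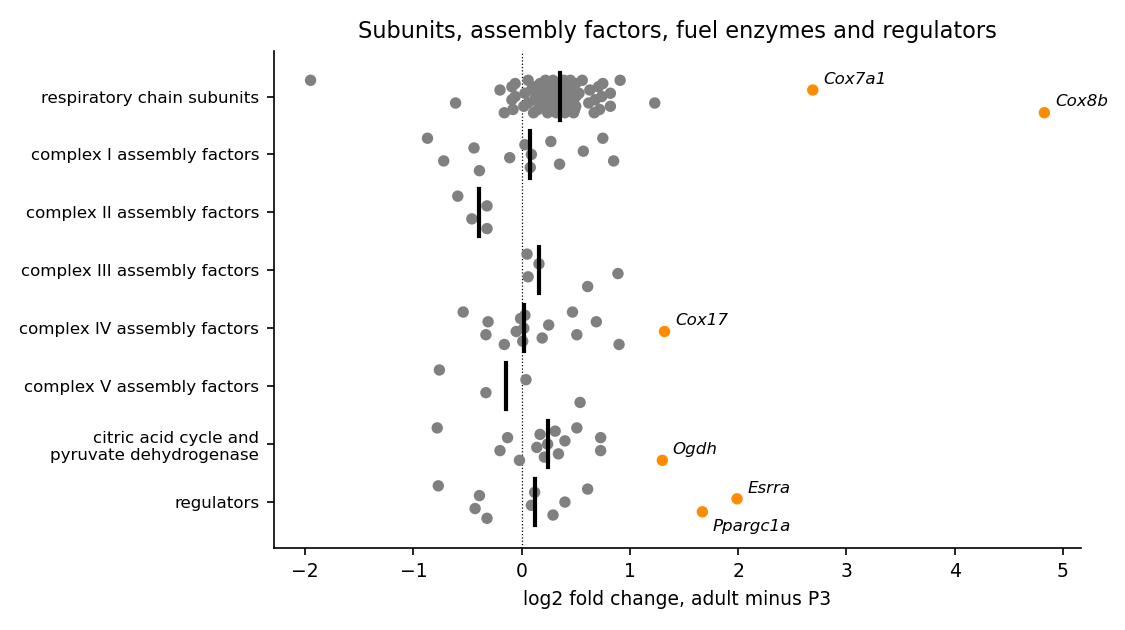
Log2 fold change (adult minus P3) of the subunits, of the assembly factors of each complex, of citric acid cycle and pyruvate dehydrogenase genes and of regulators. Each point is 1 gene, orange points were called higher in the adult and black bars are medians, at 0.35 for the subunits, 0.24 for the fuel enzymes and -0.39 for the complex II factors.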

How the data were processed

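RNA of cochlear sensory epithelia from 3 P3 and 3 adult pools was hybridized to 6 Affymetrix arrays. The deposited values are intensities, MAS5.0 signals that the authors obtained on a linear scale from GCOS (version 1.2 per the submitters' processing notes, another version in the methods). Each array had a trimmed mean of 100, with 2% of values trimmed at each end, and no further normalization was applied. All 6 columns matched a sample, and 0 were left over. Detection calls were not used.

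Of 45101 probe sets, 64 were controls and 34945, 932 and 9160 named 1, several and no gene in the platform annotation of 2016. All 83 member genes matched a RefSeq gene by identifier. Background was the 90th percentile of 83 chemosensory receptor probe sets. The 29036 probe sets above it on at least 3 arrays were kept, and they covered 13743 genes, each represented by its kept single-gene probe set of highest mean log2 signal. P3 and adult arrays were compared with limma 3.58.1 under R 4.3.3 (functions lmFit and eBayes, intensity trend, stage only), in place of the relabelling test of the methods, with Benjamini-Hochberg adjustment over all kept probe sets. A gene was called at 2-fold or more with an adjusted p below 0.05. With 3 arrays per stage, the smallest p of an exact permutation test is 0.1. The fit was tested on simulated data. Sources used here give no scan batch. The number of arrays limits the precision.

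Every member could be named. Array values were set for members past the threshold, the extremes of each complex, isoform sets, complex II, Cycs and Cyc1, and others were added after their values were seen (Ndufa13, second probe sets, the markers with values, Gabpa, Tfam and the shared probe sets). The members, the lists and the motifs were chosen with earlier results of these data known. Alternatives were quantile and median scaling, other filters, floored signals, added background, no trend, array weights, the replicate block, each array left out and the mean over probe sets of a gene. For the lists other than members they were added after the data were seen.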

Additional observations from a re-analysis of the deposited data

How the results depend on the processing

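Cox8b and Cox7a1 were called in all 17 alternatives, and no member was called higher at P3 in any. The count of members called higher in the adult was 2, and 5 with array quality weights (Cox8b, Cox7a1, Cox4i2, Cox5a and Ndufa13). With each array left out it ranged from 2 to 5, the 5 arising without P3 replicate 1. The weights gave P3 replicate 1 the lowest weight (0.155) and adult replicate 3 the highest (5). Adult replicates 1 and 2 had 0.459 and 0.493, so the adult side rested mostly on 1 array. Calls then rose over all genes, from 623 to 1697 in the adult and from 755 to 1657 at P3. Under the weights 50 members had an adjusted p under 0.05, against 2 as reported, where 1493 of all 13743 genes had one. The share of all genes past that threshold under the weights was not counted, so the 50 cannot be set against it. Cox4i2 went from -0.09 to 1.10 under the weights, and the cause was not tested.

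The members' median of 0.35 ranged from 0.20 to 0.59 with each array left out, that of complex III from 0.18 to 0.63 and that of complex IV from 0.03 to 0.65. Complex II had 0.44 with weights, complex III 0.17 with the mean over probe sets, and complex IV 0.56 after quantile normalization and 0.69 with weights. Of 86 genes followed, 58 kept their sign in every alternative run for them and 28 did not. Among the 46 members with several measured probe sets, 12 had probe sets of both signs.

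Assembly factors had a median of -0.11 with weights and between -0.06 and 0.14 with each array left out. Their adult calls were 0 after median scaling, 0 without a trend, 2 with weights and 2 with the mean over probe sets, and 0 to 2 with each array left out. With weights 1 was called at P3. The citric acid cycle list had a median of 0.35 with the mean over probe sets and 0.14 to 0.36 with each array left out. Its adult calls were 0 after median scaling, 0 without a trend, 2 with the mean over probe sets and 0 to 1 with each array left out. The regulators had a median of -0.10 with weights and -0.05 to 0.21 with each array left out, and 1 call after median scaling and 1 with the mean over probe sets.

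All genes called, 623 in the adult and 755 at P3, came to 192 and 200 after median scaling, 248 and 323 without a trend and 1697 and 1657 with weights. Without P3 replicate 2 they were 325 and 313, without P3 replicate 3 318 and 286, and without adult replicate 3 153 and 238.

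The replicate numbers only name the arrays. Deviations of same-numbered arrays correlated at 0.182, 0.213 and 0.0762, so not every pair passed 0.1, though each array correlated best with its own number, a hint from the data. With the replicate block 2 members were called, as without it, and 803 and 864 genes in all. Low signals limit Cox7c, Cox4i2, Cox6a2 and Ndufa4l2.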

Other observations

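Some subunits are read only, or also, by probe sets that name several near-identical genes, and these were left out of the counts above. Ndufb4, an accessory subunit of complex I, shared a pair of probe sets with Ndufb4b and Ndufb4c. The brighter gave 1503, 1469 and 1374 on the P3 arrays and 2246, 2758 and 2477 on the adult arrays, with no overlap and a log2 fold change of 0.78 ± 0.23 (SE, adjusted p = 0.0789). The other gave 628, 1133 and 1010 against 1459, 2185 and 1817, a log2 fold change of 1.00 ± 0.30 (adjusted p = 0.0793).

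The probe set of Ndufs6 and Ndufs6b gave 1063, 1122 and 1041 at P3 and 1373, 1737 and 1478 in the adult (log2 fold change 0.50, adjusted p = 0.207). That of Ndufs5 and Ndufs5-ps gave 1045, 1173 and 1040 against 1494, 1749 and 1748 (0.61, adjusted p = 0.129), and the brighter of Ndufa11 and Ndufa11b 770, 1372 and 1109 against 1271, 1398 and 1257 (0.31, adjusted p = 0.525). None of these probe sets was called. The stages stood apart for the Ndufs6 and Ndufs5 probe sets, and for Ndufa11 they overlapped. P3 replicate 1 was the lowest of the 6 arrays on that Ndufa11 probe set. On a dim second one of 69.9, 17.8 and 19.7 against 31.4, 13.4 and 31.2 it was the highest (log2 fold change -0.30, adjusted p = 0.821).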
